A study of Homo sapiens with 6 samples.

Results

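Homologous recombination and its partner pathways were followed through 32 genes, chosen by symbol: recombination factors, end resection enzymes and helicases, Fanconi anemia proteins, the kinases of the damage checkpoint and 1 mismatch recognition subunit. Earlier results of these data were known when they were chosen. Shares of the 32 set beside shares of all genes are therefore descriptions and not tests. All 32 symbols were found among the 21512 genes of the deposited RNA sequencing table, and all 32 were among the 13885 genes that averaged at least 20 counts per library and entered the tests. The table covers human prostate cancer cells in 6 libraries, 1 for each pairing of 2 cell lines with 3 treatments. LNCaP is an established line that depends on the androgen receptor, and BicR is named in the labels as prostate cancer without a description of its origin. Cells of both lines spent 3 days in phenol red-free medium with 2.5% charcoal-stripped serum, which is poor in steroids. They were then given ethanol as vehicle, 10 nM dihydrotestosterone (DHT, the potent natural androgen) or 1 µM bicalutamide (an androgen receptor antagonist) for 24 h. No label says that any library came from a separate culture, so the p-values given here measure only the spread between these libraries, and a difference between 2 libraries of 1 line has no replicate check.

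Homologous recombination repairs a double-strand break by copying an intact sister chromatid, so it works mainly after DNA has been replicated. The MRE11-RAD50-NBN complex and its partners trim the broken ends, BRCA1 with BARD1 and PALB2 brings in BRCA2, and BRCA2 prepares the exposed single strand for the search for the sister copy. Fanconi proteins unhook crosslinks between the strands and hand the break to the same machinery, while ATM and ATR signal the damage to CHEK2 and CHEK1. In prostate cancer, inherited or acquired defects of BRCA2, ATM and their partners are well known, and androgen signalling and repair capacity have been linked in both directions.

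Total counts were between 42162723 and 55917016 per library, so that 3 counts, taken as the detection floor, equalled 0.0553 to 0.0715 CPM (counts scaled to library size, with libraries matched by the trimmed mean of M-values). Luminal prostate markers summed to 3980 to 13159 CPM, with all 10 tested. Of them KLK2, KLK3, SLC45A3 and TMPRSS2 were among those that rose with DHT over both lines. Basal markers summed to 22.5 to 32.7 CPM, fibroblast markers to 26.9 to 49.1 CPM with COL1A2 at 0 in every library, and leukocyte markers to 12.2 to 28.9 CPM with PTPRC at 0 in every library. The LNCaP ethanol library stood apart from the other 5. Its 14 genes of the endoplasmic reticulum stress response summed to 26017 CPM against 6601 to 8688 CPM elsewhere, and its 23 mitosis genes to 127 CPM against 455 to 841 CPM.

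Measured per gene length, as the authors' RPKM (reads scaled to transcript length and library size), the repair genes covered a wide range. BARD1, the obligate partner of BRCA1, had the highest median over the 6 libraries at 28.2 RPKM, with libraries between 12.9 and 40.6 RPKM. MSH6, which recognizes mismatched bases, followed at a median of 9.84 RPKM, then the Fanconi core subunits FANCF at 7.68 RPKM and FANCG at 6.88 RPKM. At the low end stood FANCB at 0.181 RPKM, the BLM helicase at 0.281 RPKM and BRCA2 at 0.353 RPKM, while BRCA1 had a median of 1.10 RPKM. Added over all 32 genes, the CPM came to 517, 575 and 729 in the LNCaP ethanol, DHT and bicalutamide libraries and to 752, 617 and 699 in the BicR libraries in the same order. LNCaP ethanol was the lowest library for 20 of the 32 genes and the highest for none, and BicR ethanol was the highest for 16 and the lowest for none. In bulk RNA, fewer cells of a kind (such as dividing cells) and less RNA per cell cannot be told apart.

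**Figure D1:**
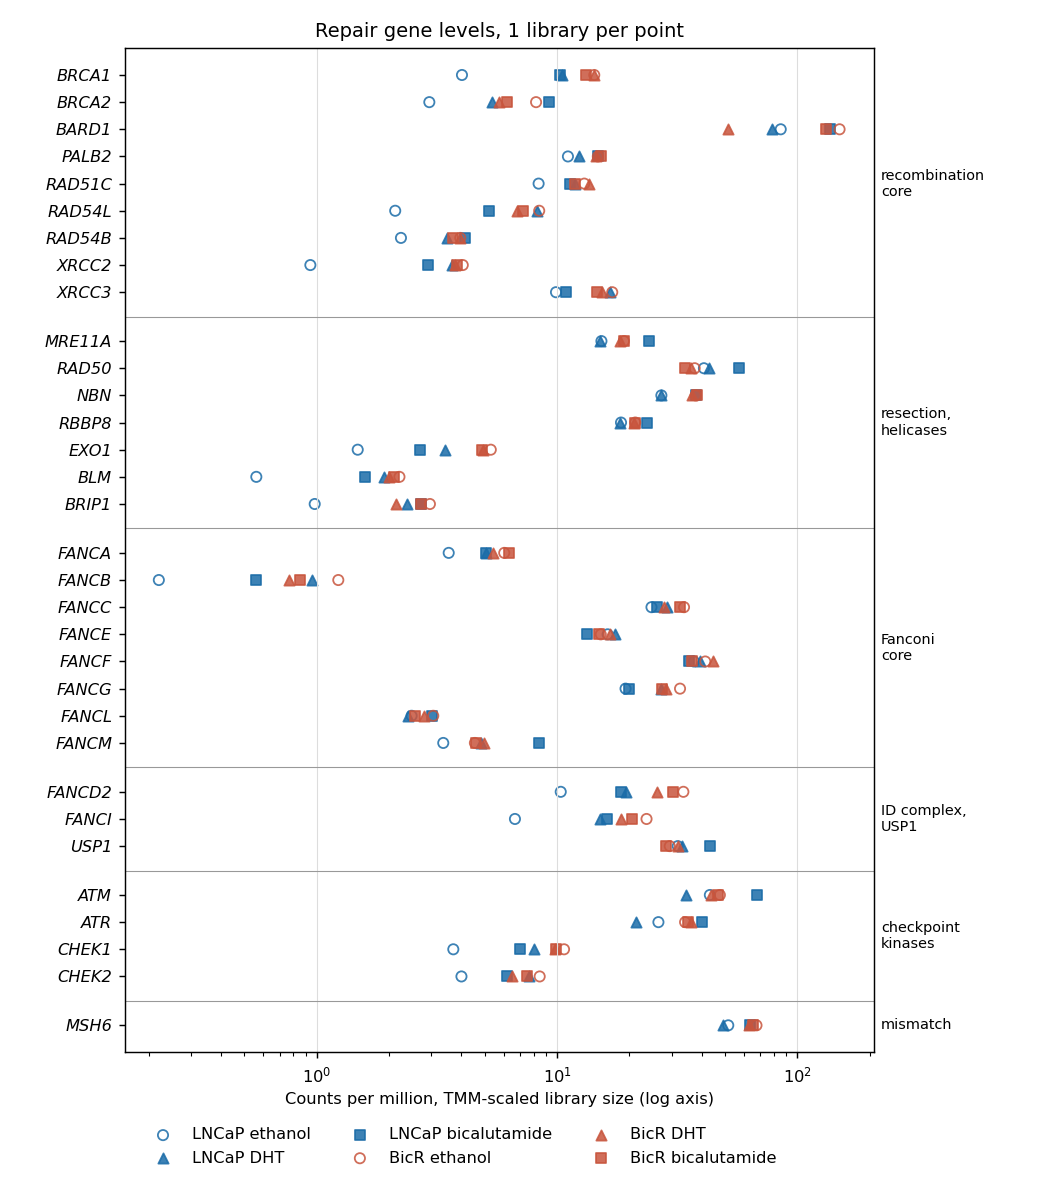
Level of each of the 32 repair genes (one line per gene, grouped by role) in CPM on a log axis, 1 point per library, with LNCaP in blue, BicR in red, open circles for ethanol, triangles for DHT and squares for bicalutamide. The open blue circle of LNCaP ethanol is the leftmost point for 20 genes, and the red triangle of BARD1, at 51.3, lies to the left of its other 5 libraries.

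Both DHT and bicalutamide libraries of LNCaP held more transcript of many recombination genes than the ethanol library, and none of the 32 was 1.5-fold lower in either. On the log2(CPM + 1) scale, 13 of 32 were at least 1.5-fold higher with DHT, where 4.88% of all tested genes were, and 14 of 32 with bicalutamide, where 6.52% were. No repair gene was lower by that much, against 5.29% and 7.94% of all genes. The median difference of the 32 genes was 0.44 with DHT and 0.55 with bicalutamide on that scale, and the median over all genes was 0.01 in each. Because both differences are taken from the same ethanol library, which was the lowest for most of these genes, they are not separate observations.

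Among the recombination factors, RAD54L and XRCC2 had the largest ratios to ethanol in LNCaP with DHT. RAD54L, a motor protein that helps the broken strand invade its sister, stood at 2.12 CPM under ethanol, 8.27 CPM under DHT and 5.23 CPM under bicalutamide in LNCaP, and at 8.43, 6.84 and 7.18 CPM in BicR. The LNCaP DHT library was 3.90-fold above ethanol (95% counting interval 3.15 to 4.87) and the bicalutamide library 2.47-fold (1.96 to 3.12); these intervals, and all ratio intervals given here, cover counting error only. LNCaP ethanol was thus the one low library, and the other 5 lay between 5.23 and 8.43 CPM. XRCC2, which helps assemble the strand exchange filament, showed the same layout, with 0.94, 3.65 and 2.89 CPM in LNCaP and 4.05, 3.77 and 3.85 CPM in BicR. Its LNCaP ratios to ethanol were 3.88 with DHT (2.81 to 5.45) and 3.08 with bicalutamide (2.21 to 4.37). XRCC3, which acts at the same step, differed in that only the DHT library of LNCaP was high, at 16.6 CPM against 9.90 under ethanol and 10.9 under bicalutamide, with BicR at 16.98, 15.4 and 14.7 CPM. RAD54B, a relative of RAD54L, ranged less, from 2.24, 3.48 and 4.14 CPM in LNCaP to 3.96, 3.93 and 3.70 CPM in BicR, and was 1.85-fold above ethanol with bicalutamide (1.46 to 2.34).

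The breast cancer susceptibility genes split into 3 layouts. BRCA1, the scaffold that favours recombination over end joining, had 4.02 CPM under ethanol, 10.5 under DHT and 10.3 under bicalutamide in LNCaP, and 14.3, 14.3 and 13.2 CPM in BicR. Against LNCaP ethanol, DHT gave a ratio of 2.60 (2.21 to 3.07) and bicalutamide one of 2.56 (2.18 to 3.03), so these LNCaP libraries were alike and both lay below BicR. BRCA2, which acts after BRCA1 in recombination, had 2.94, 5.34 and 9.24 CPM in LNCaP and 8.18, 5.75 and 6.19 CPM in BicR. Here the bicalutamide library of LNCaP was the highest of the 6, at 3.14 times ethanol (2.61 to 3.81), while the DHT library reached 1.82 times (1.48 to 2.23). In BicR ethanol was instead the highest library, with DHT at 0.703 times ethanol (0.597 to 0.825) and bicalutamide at 0.756 times (0.651 to 0.878). BARD1 had 85.3, 78.2 and 136 CPM in LNCaP and 150.0, 51.3 and 132 CPM in BicR. In both lines it was lowest under DHT, and the BicR DHT library was lower than the rest. PALB2, which bridges BRCA1 and BRCA2, and RAD51C, which works with XRCC3, stayed within 1.5-fold of ethanol in both lines, with LNCaP ratios between 1.12 and 1.41.

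Among the resection enzymes and helicases, the low-abundance ones resembled RAD54L. BLM, the helicase lost in Bloom syndrome, had 0.56, 1.90 and 1.59 CPM in LNCaP and 2.21, 2.003 and 2.10 CPM in BicR. Its LNCaP ratios were 3.39 with DHT (2.21 to 5.34) and 2.84 with bicalutamide (1.83 to 4.53), resting on 28 counts under ethanol. BRIP1, the helicase that binds BRCA1, had 0.98, 2.38 and 2.70 CPM in LNCaP and 2.96, 2.15 and 2.73 CPM in BicR. EXO1, the exonuclease of long-range resection, had 1.48, 3.41 and 2.68 CPM in LNCaP and 5.30, 4.91 and 4.86 CPM in BicR. For EXO1 and BLM every BicR library lay above every LNCaP library. MRE11A, the nuclease that starts resection, behaved otherwise, with 15.3, 15.1 and 24.2 CPM in LNCaP and 18.99, 18.2 and 18.97 CPM in BicR. Only the bicalutamide library of LNCaP stood out, at 1.58 times ethanol (1.45 to 1.73) before allowing for length. Its complex partners RAD50 and NBN were each at 1.40 times ethanol with bicalutamide in LNCaP, and with DHT all 3 subunits were between 0.985 and 1.05 times ethanol. For NBN, however, the BicR libraries, at 36.3 to 38.2 CPM, were at the level of LNCaP bicalutamide, at 38.0 CPM. RBBP8 (CtIP), which activates MRE11, ranged only from 18.3 to 23.6 CPM over the 6 libraries.

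The Fanconi pathway divided between its core complex, which attaches ubiquitin, and the FANCD2-FANCI pair that receives it. FANCD2 had 10.4, 19.4 and 18.4 CPM in LNCaP and 33.6, 26.0 and 30.4 CPM in BicR, so that all 3 BicR libraries exceeded all 3 of LNCaP. With DHT it was 1.87-fold above ethanol in LNCaP (1.68 to 2.08) and at 0.774 times ethanol in BicR (0.717 to 0.835). Its partner FANCI had 6.68, 15.1 and 16.1 CPM in LNCaP and 23.6, 18.5 and 20.6 CPM in BicR, again with the LNCaP libraries below. USP1, which removes the ubiquitin from FANCD2, was highest under bicalutamide in LNCaP, at 43.2 CPM, with 28.4 to 33.0 CPM in the other 5 libraries. In the core complex, FANCB was the one member at least 1.5-fold higher with DHT in LNCaP, with 0.22, 0.958 and 0.556 CPM there and 1.23, 0.763 and 0.855 CPM in BicR. It rests on 11 to 64 counts per library, and its DHT ratio of 4.35 in LNCaP had an interval from 2.24 to 9.25. FANCG, another core subunit, had 19.3, 27.2 and 19.9 CPM in LNCaP and 32.5, 28.3 and 27.4 CPM in BicR, resembling XRCC3. FANCM, the translocase that anchors the core complex at DNA, was instead highest under bicalutamide in LNCaP, with 3.36, 4.83 and 8.38 CPM there and 4.55, 4.96 and 4.62 CPM in BicR. Its bicalutamide ratio in LNCaP was 2.49 (2.08 to 3.00), and the BicR libraries lay between LNCaP ethanol and LNCaP bicalutamide. FANCA, FANCC, FANCE, FANCF and FANCL remained within 1.5-fold of ethanol in both lines, and FANCE was lower with bicalutamide in LNCaP, at 0.821 times ethanol (0.741 to 0.910).

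Of the checkpoint kinases, ATM and ATR act upstream of CHEK2 and CHEK1. ATM, the kinase activated by double-strand breaks, had 43.3, 34.4 and 68.1 CPM in LNCaP and 47.6, 43.7 and 46.6 CPM in BicR. ATR, activated by exposed single strands, had 26.4, 21.3 and 40.03 CPM in LNCaP and 34.1, 36.0 and 35.1 CPM in BicR. In LNCaP both upstream kinases were lowest under DHT, at 0.796 times ethanol for ATM (0.748 to 0.847) and 0.806 times for ATR (0.744 to 0.873), and highest under bicalutamide, at 1.57 and 1.51 times. These kinases are long genes, and their values after allowing for length are given with the length trend. The effector kinases CHEK1 and CHEK2 were lowest under ethanol in LNCaP. CHEK1 had 3.70, 8.03 and 7.02 CPM in LNCaP and 10.7, 9.83 and 9.89 CPM in BicR, with LNCaP ratios of 2.17 with DHT (1.82 to 2.59) and 1.90 with bicalutamide (1.58 to 2.27). CHEK2 had 4.001, 7.61 and 6.17 CPM in LNCaP and 8.47, 6.49 and 7.49 CPM in BicR. MSH6 ranged from 49.2 to 63.7 CPM in LNCaP (51.6, 49.2 and 63.7) and from 63.1 to 67.7 CPM in BicR (67.7, 63.1 and 65.6).

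**Figure D2:**
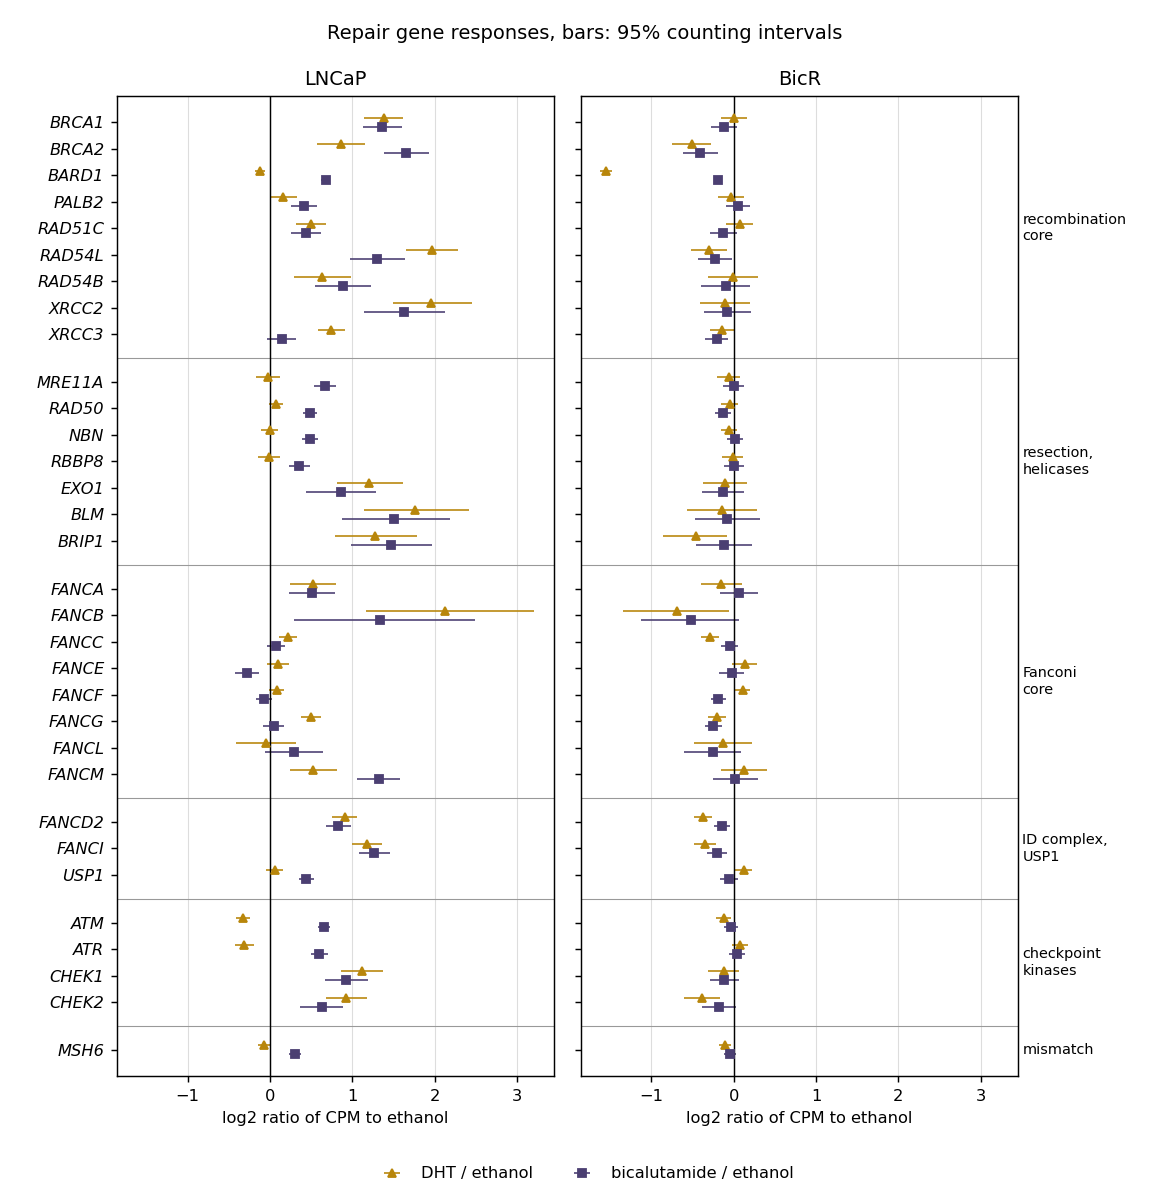
Ratio of the DHT library (triangles) and the bicalutamide library (squares) to the ethanol library for each of the 32 repair genes, on a log2 axis, in LNCaP (left) and BicR (right), with bars for 95% counting intervals. In LNCaP the points of RAD54L, XRCC2, BLM and BRCA1 lie to the right of 0 for both agents. In BicR most points lie near 0 or to its left, and BARD1 with DHT, at a ratio of 0.342, is the farthest.

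In BicR, BARD1 was the 1 repair gene at least 1.5-fold apart between treatments on log2(CPM + 1), while many others were slightly below ethanol. With DHT, 1 of 32 was at least 1.5-fold lower than ethanol, where 4.55% of all genes were, and none was higher, where 4.23% were. The 1 gene was BARD1, at 0.342 times ethanol (0.326 to 0.359) from 2151 against 7811 counts, and it stood at 0.390 times the bicalutamide library (0.371 to 0.410). Against bicalutamide it was again the 1 gene of the 32 at least 1.5-fold lower (4.49% of all genes), and none was higher (3.82%). No repair gene was 1.5-fold higher or lower in BicR with bicalutamide against ethanol, where 0.0504% and 0.108% of all genes were, so those libraries were close throughout the table. By ratio of CPM to ethanol, the counting interval lay below 1 for 12 of 32 with DHT and above 1 for 2. With bicalutamide it lay below 1 for 9 and above 1 for 0. The shares of all genes with such intervals were not computed. Those below 1 with DHT included FANCB at 0.621 (0.393 to 0.963), which is past 1.5-fold by this ratio. CHEK2 was at 0.766 (0.656 to 0.893) and RAD54L at 0.812 (0.697 to 0.944). The median difference of the 32 genes in BicR was -0.10 with DHT and -0.09 with bicalutamide, on log2(CPM + 1).

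Set side by side, LNCaP and BicR responses to DHT had opposite signs for several members. Counting those whose interval excluded no difference in both lines, 9 of 32 (28.1%) were higher in LNCaP and lower in BicR, a layout that 10.9% of all tested genes had. None had the reverse layout, against 12.2% of all genes. With bicalutamide the counts were 6 of 32 (18.8%) against 6.86% of all genes, and none for the reverse against 9.18%. The difference of the DHT response between the lines was tested in edgeR over all genes, with the ethanol and bicalutamide libraries of each line combined as the libraries without androgen. The difference between the ethanol and bicalutamide libraries of a line is the error of this test. In LNCaP that difference was at least 1.5-fold for 14 of the 32. For such members the test cannot decide whether the lines differ in their DHT response. No gene of the table passed an adjusted p under 0.05 (0% in either direction). Before adjustment, p was under 0.05 for 740 genes with a larger response in BicR (5.33%) and 688 with a smaller one (4.95%), and for 1 of the 32, XRCC3, with a log2 difference of -0.71 (SE 0.28, edgeR adjusted p = 0.48). RAD54L, at -1.36 (edgeR adjusted p = 0.576), and FANCB, at -1.74 (edgeR adjusted p = 0.544), had larger estimates and did not pass. DESeq2 also called none of the 32.

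Treatment effects common to both lines were tested with an additive model of line and treatment over all 6 libraries, in which the lines act as replicates and what differs between them is the error. For DHT against ethanol, edgeR called 22 genes higher (0.158%) and 1 lower (0.0072%) at an adjusted p under 0.05, and none of the 32 repair genes was among them, in edgeR, DESeq2 or limma on RPKM. Before adjustment p was under 0.05 for 2.74% of all genes as higher and 2.89% as lower, and of the 32 for BARD1 alone, with a log2 fold change of -0.85 (SE 0.31, edgeR adjusted p = 0.758), and it was lower in both lines. Leaving out either ethanol library leaves 1 sample in the ethanol arm, which the fit then assumes to vary like the other groups, so such calls rest on that sample. Without LNCaP ethanol, BARD1 was past the threshold, at -1.40 (edgeR adjusted p = 0.0069). Without that library the median of the 32 genes went from 0.16 to -0.10 and the number with a positive fold change from 23 to 4. Without BicR ethanol, where the lone ethanol sample is the library that stood apart, the higher genes included RAD54L (1.79, edgeR adjusted p = 0.00598), BRCA1 (1.40, 0.0295) and XRCC2 (1.87, 0.035). For bicalutamide against ethanol, edgeR called no gene of the table (0% in either direction), and before adjustment p was under 0.05 for 52 higher (0.375%) and 89 lower genes (0.641%), with none of the 32 among those. DESeq2 and limma called none of the 32 there. FANCM had a log2 fold change of 0.69 with bicalutamide (SE 0.35, edgeR adjusted p = 0.996). Again with 1 ethanol sample, BRCA2 passed without BicR ethanol, at 1.49 (edgeR adjusted p = 0.0472), and without LNCaP ethanol the median of the 32 went from 0.26 to -0.14.

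DHT and bicalutamide were also compared with each other, which leaves out the ethanol libraries within a line. In LNCaP 6 of the 32 were at least 1.5-fold lower with DHT than with bicalutamide, where 7.03% of all genes were, and none was higher, where 8.87% were. These were ATM at 0.506 times bicalutamide (0.478 to 0.535), ATR at 0.532 (0.495 to 0.572), BARD1 at 0.574 (0.552 to 0.596), FANCM at 0.576 (0.492 to 0.673), BRCA2 at 0.578 and MRE11A at 0.622 (0.569 to 0.680). By ratio of CPM, FANCB (1.72, 1.07 to 2.82), RAD54L (1.58, 1.36 to 1.84) and XRCC3 (1.52, 1.37 to 1.69) were on the other side. Over both lines, edgeR called 23 genes higher with DHT than with bicalutamide (0.166%) and none lower (0%), with none of the 32 among them in edgeR, DESeq2 or limma. Of the 32, BARD1 (-1.04, SE 0.30, edgeR adjusted p = 0.527) and ATM (-0.55, SE 0.24, edgeR adjusted p = 0.695) had p under 0.05 before adjustment, as did 3.63% of all genes that were lower and 3.48% that were higher. BARD1 had a log2 fold change of -1.08 when either LNCaP ethanol or BicR ethanol was left out, and of -1.59 without LNCaP DHT. The fits without an ethanol library draw this contrast from the same DHT and bicalutamide libraries, so they are not separate checks. Without LNCaP DHT the DHT arm is the BicR library alone.

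Gene length moved with the LNCaP differences. Length here is the transcript length used for RPKM, obtained by dividing counts by RPKM, and not the span of the locus. Relative to the median it was 1.39 in the median of the 32 genes against 0.991 over all tested genes. Of the 32, 25 were above the latter, and the range was from RAD51C at 0.481 to ATM at 4.51. Over 13885 genes of the same libraries, the difference between LNCaP DHT and bicalutamide had a correlation of -0.52 with log2 length (Pearson; Spearman -0.56), which describes genes that are not independent. Against ethanol it was -0.21 for DHT and 0.32 for bicalutamide, and in BicR it was 0.00959 for DHT and 0.12 for bicalutamide. For BicR against LNCaP it was 0.19 under ethanol, 0.34 under DHT and -0.05 under bicalutamide. The longer genes of the table were thus higher under bicalutamide and lower under DHT in LNCaP as a whole. Subtracting the smooth length trend took ATM in LNCaP DHT against bicalutamide from -0.96 to -0.31 on log2(CPM + 1), ATR from -0.88 to -0.45 and BRCA2 from -0.69 to -0.11. FANCM went from -0.69 to -0.32 and MRE11A from -0.65 to -0.42, while BARD1 went from -0.79 to -0.86 and alone remained 1.5-fold lower. The counts against ethanol moved little, with 13 of 32 higher with DHT before and after, and 14 before and 13 after with bicalutamide. For bicalutamide against ethanol, BRCA2 went from 1.38 to 1.05 and FANCM from 1.10 to 0.88, both still past 1.5-fold. ATM went from 0.64 to 0.28 and MRE11A from 0.63 to 0.47, both then below 1.5-fold. ATR went from 0.58 to 0.32, on this scale below 1.5-fold before and after. CHEK2 went from 0.52 to 0.62 and came to pass it. For DHT against ethanol, ATM went from -0.32 to -0.023 and ATR from -0.30 to -0.13. What made the LNCaP libraries differ by length was not tested.

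**Figure D3:**
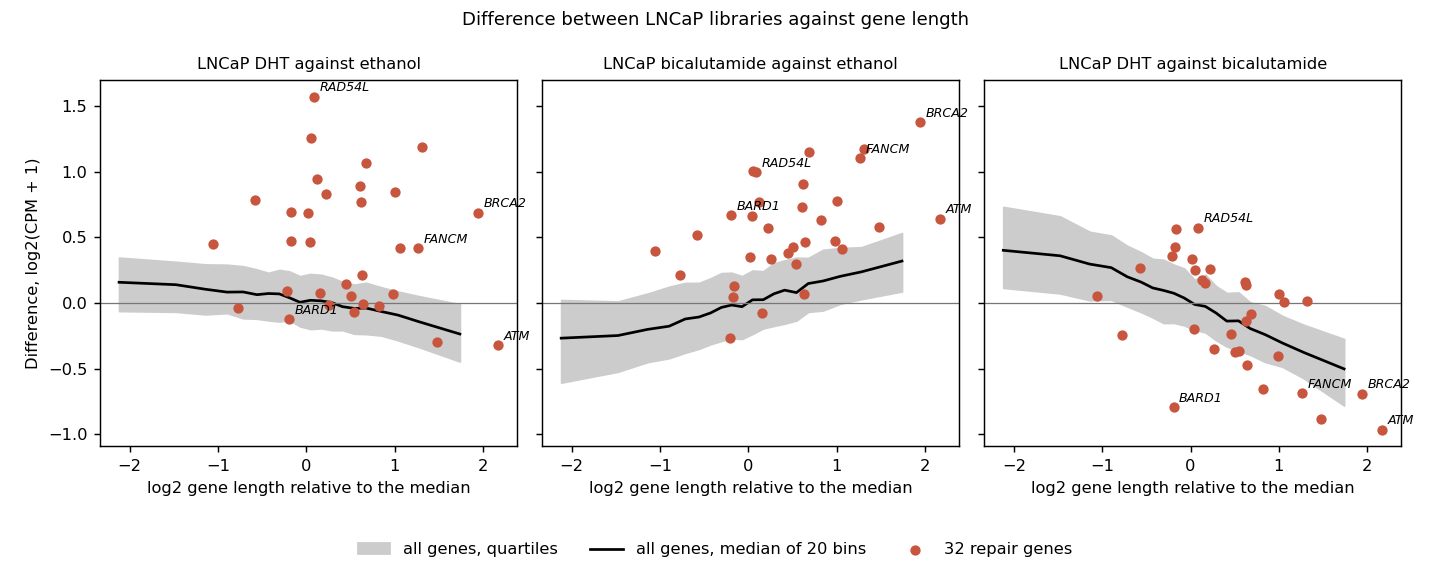
Difference on log2(CPM + 1) in the 3 comparisons within LNCaP against log2 gene length relative to the median, with all tested genes as a black line (medians of 20 length bins) and a grey band (quartiles) and the 32 repair genes as red points. In DHT against bicalutamide ATM, the longest of the 32, lies at -0.96 where the line has fallen. BARD1, whose transcript is shorter than the median, lies at -0.79, below the line.

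The lines were compared next, under each treatment and over all 3. Under ethanol, BicR was at least 1.5-fold above LNCaP for 17 of 32 repair genes, as for 8.43% of all genes, and below it for none, where 12.8% were. FANCB had the widest ratio, 5.59 (2.92 to 11.7), followed by XRCC2 at 4.31 (3.13 to 6.05), RAD54L at 3.98 (3.21 to 4.96), BLM at 3.94 and EXO1 at 3.58 (2.76 to 4.69). Under DHT the count was 1 higher (ATR, 1.69, 1.56 to 1.82; 10.9% of all genes) and 1 lower (BARD1, 0.656, 0.622 to 0.691; 14.5%). After subtraction of the length trend neither remained at 1.5-fold. Under bicalutamide EXO1 (1.81, 1.47 to 2.25) and FANCD2 (1.65, 1.52 to 1.79) were higher, against 3.31% of all genes. FANCM, RAD50 and USP1 were lower there, at 0.551, 0.596 and 0.657 times LNCaP, against 5.69% of all genes. The excess in BicR thus covered many members under ethanol and few under the other treatments, and these 3 comparisons use different libraries.

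Over the 3 treatments, edgeR called 219 genes higher (1.58%) and 395 lower (2.84%) in BicR, and none of the 32 repair genes passed. Before adjustment, 6 of the 32 had p under 0.05 with more transcript in BicR and none with less, beside 10.6% and 14.2% of all genes. Leaving out LNCaP ethanol took the 6 to 2 and leaving out BicR ethanol took it to 1, and in each case the median fold change of the 32 went from 0.31 to 0.14. FANCD2 came nearest, with a log2 fold change of 0.94 (SE 0.24, edgeR adjusted p = 0.0638), then EXO1 at 1.06 (SE 0.30, edgeR adjusted p = 0.0812), both higher in BicR under each of the 3 treatments. BRCA1 (0.86, SE 0.29), CHEK1 (0.76, SE 0.27), FANCI (0.81, SE 0.29) and FANCG (0.42, SE 0.18) followed with edgeR adjusted p between 0.12 and 0.185. They too were higher in BicR under each treatment, but FANCG under DHT only slightly, at 28.3 CPM against 27.2 CPM in LNCaP. DESeq2 called 4 of the 32 higher, FANCD2 (adjusted p = 0.00498), EXO1 (0.0191), BRCA1 (0.035) and FANCI (0.0469), and limma on RPKM called none. With LNCaP DHT or BicR DHT left out, FANCD2 had a log2 fold change of 1.21. Both fits draw the line difference from the same ethanol and bicalutamide libraries, so they are not separate checks. In the same way, the fits without an ethanol library draw it from the same DHT and bicalutamide libraries. RAD50 passed as lower in BicR only with a gene length correction in the model, at -0.56 (edgeR adjusted p = 0.045).

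**Figure D4:**
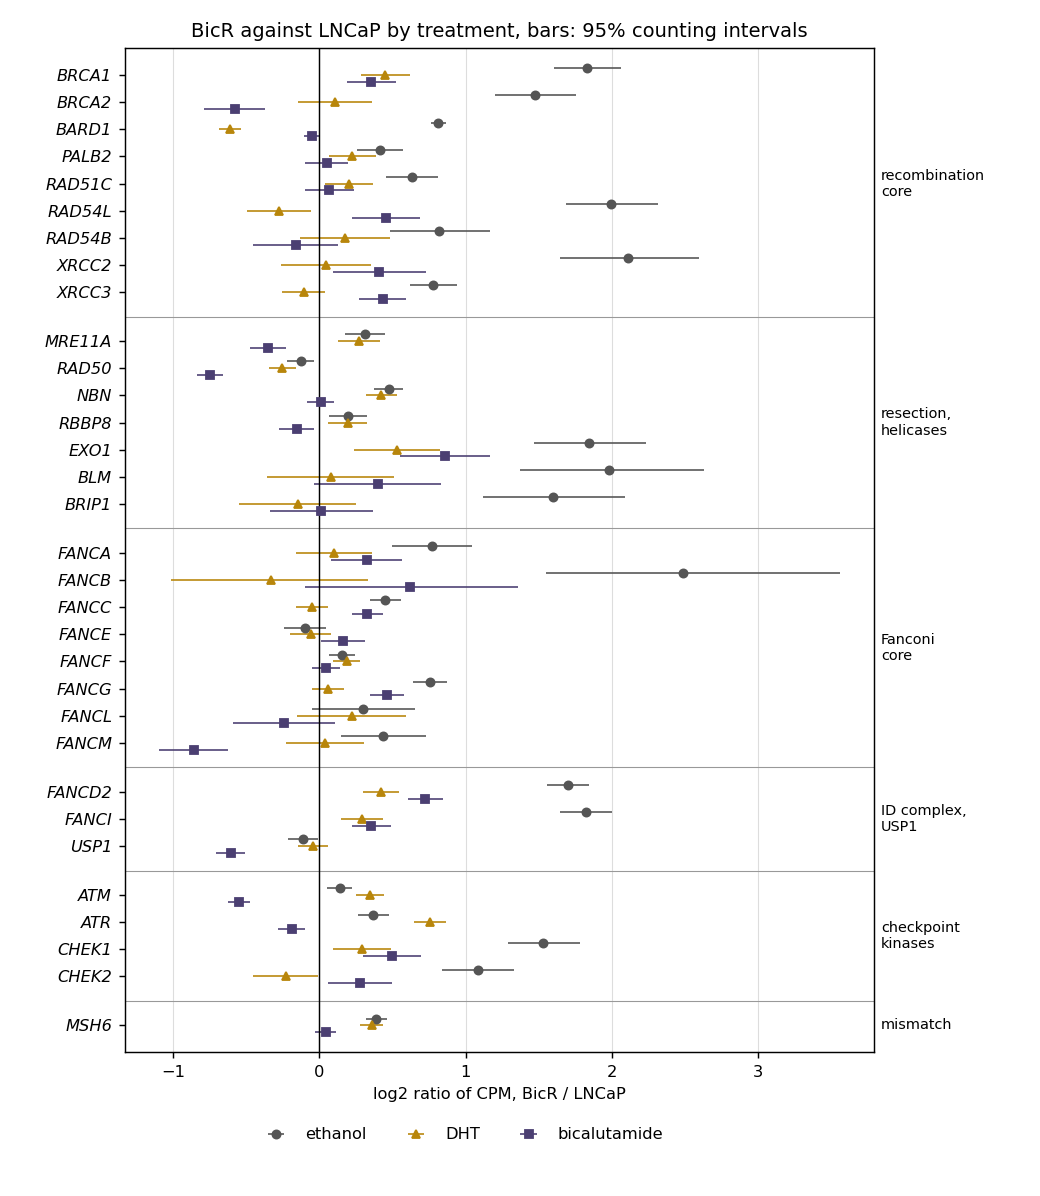
Ratio of BicR to LNCaP for each of the 32 repair genes on a log2 axis, under ethanol (circles), DHT (triangles) and bicalutamide (squares), with bars for 95% counting intervals. The circles of ethanol lie right of 0 for 29 of 32 genes by difference of log2(CPM + 1). EXO1 and FANCD2 lie to the right under all 3 treatments, as do others such as BRCA1, CHEK1 and FANCI. ATR is farther to the right under DHT (0.73 on log2(CPM + 1)) than under ethanol (0.36), and FANCM lies to the left under bicalutamide.

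Other repair and cell cycle genes, listed by function and read from the same fits, place the 32 genes among their neighbours. A further 33 tested recombination and Fanconi genes had a median difference of 0.16 with DHT in LNCaP, with 11 at least 1.5-fold higher, and of 0.36 with bicalutamide, with 8 higher. None of them passed a test over both lines. Of 20 other checkpoint genes, 4 were higher with DHT and 6 with bicalutamide, at medians of 0.12 and 0.33. For other repair pathways, the medians with DHT were -0.01 for 11 end joining genes and -0.18 for 6 other mismatch repair genes. They were -0.09 for 19 nucleotide excision genes and 0.26 for 18 base excision genes. With bicalutamide the same lists had medians of 0.20, 0.19, -0.06 and -0.03. PRKDC, the kinase of end joining and a long gene, had 396, 306 and 646 CPM in LNCaP and 759.7, 666 and 748 CPM in BicR, the same order as ATM within LNCaP. PARP1, the sensor of single-strand breaks, ranged from 264 to 353 CPM with no library apart.

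Cell cycle genes differed between the same libraries. All 23 tested mitosis genes were at least 1.5-fold higher in LNCaP with DHT and with bicalutamide than with ethanol, at medians of 1.67 and 1.68 on log2(CPM + 1). In BicR their medians were 0.07 and -0.20. MKI67, the proliferation marker, had 12.7, 27.5 and 44.1 CPM in LNCaP and 97.0, 104 and 85.1 CPM in BicR, and it was higher in BicR over the treatments (1.93, edgeR adjusted p = 0.0189), as were the mitosis genes BUB1, CCNB1, KIF20A and TPX2. Of 27 S phase genes, 16 were 1.5-fold higher with DHT in LNCaP and 6 with bicalutamide, at medians of 0.60 and 0.36. CDC6 (0.96, edgeR adjusted p = 0.0384) and GINS4 (1.09, edgeR adjusted p = 0.0497), both needed to start replication, passed as higher in BicR, while PCNA, the replication clamp, stayed between 35.4 and 43.2 CPM. The p53 target CDKN1A, an inhibitor of the cell cycle, had 852, 443 and 388 CPM in LNCaP. In BicR it had 199.8, 184 and 229 CPM and was lower (-1.37, edgeR adjusted p = 0.0261), as was BBC3 (-1.49). Of 17 p53 targets tested, these 2 passed as lower and 15 did not pass, beside 2.84% of all genes lower. The median of the 17 in BicR against LNCaP was -0.41 under ethanol, 0.04 under DHT and -0.08 under bicalutamide. HSPA5, the main chaperone of the endoplasmic reticulum, had 8598 CPM in LNCaP ethanol and 1245 to 1646 CPM in the other 5 libraries. The part of cell cycle state or of reticulum stress in the repair gene values was not tested. KLK3, the androgen target PSA, had 1403, 5259 and 979 CPM in LNCaP and 672, 2601 and 630.2 CPM in BicR, so that the DHT libraries were the highest of each line.

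Since many members were high or low in the same LNCaP libraries, their promoters were searched for letters known from cell cycle and androgen-regulated genes. RefSeq promoters of GRCh38.p14 were found for 29 of 32 genes, MRE11A under its current symbol MRE11, and not for RAD54B, NBN and FANCI. In the 250 bases before the listed starts, on both strands, CCAAT (the letters of the box bound by NF-Y) was found in 15 of 29 members (51.7%) and in 37% of 27305 genes. Of the members at least 1.5-fold higher with DHT in LNCaP, 7 of 12 with a promoter held it, and of the other members 8 of 17. The 4 spellings of the E2F site searched, TTTCCCGC, TTTCGCGC, TTTGCCGC and TTTGGCGC, were found in 2 of 29 members (6.9%; FANCA and FANCC) and 3.4% of genes. The CHR letters TTTGAA were found in 4 members (13.8%) and 16.1% of genes. The androgen response element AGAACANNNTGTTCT was found in no member and in 0.00366% of genes, and AGAACA alone, which is part of that element, in 1 member (BRCA2, 3.45%) and 14.8% of genes. These are matches of letters only.

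The stretches shown run from 180 to 31 bases before the most upstream listed start. They are those of 3 members that were higher in LNCaP DHT and hold at least 2 CCAAT matches there. BRIP1 met the same rule, with 2 matches, at 117 and 49 bases, and is not printed. BARD1, which holds 0 and was lowest under DHT, is shown as well. The 3 members were picked for their matches, so these stretches do not test a contrast with BARD1. Each is printed 5′ to 3′ along the gene, with CCAAT or its complement ATTGG in capitals. They lie at chr14:103715482-103715631 on the minus strand (XRCC3), chr15:90717166-90717315 on the plus strand (BLM), chr22:28741851-28742000 on the minus strand (CHEK2) and chr2:214809714-214809863 on the minus strand (BARD1), all in GRCh38.p14.
XRCC3: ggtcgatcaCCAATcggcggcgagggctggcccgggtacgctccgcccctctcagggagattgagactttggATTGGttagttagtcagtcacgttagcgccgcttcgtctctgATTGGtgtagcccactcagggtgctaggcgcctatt
BLM: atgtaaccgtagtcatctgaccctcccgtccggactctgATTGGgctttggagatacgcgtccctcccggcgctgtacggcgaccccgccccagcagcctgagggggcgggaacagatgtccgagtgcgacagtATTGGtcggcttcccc
CHEK2: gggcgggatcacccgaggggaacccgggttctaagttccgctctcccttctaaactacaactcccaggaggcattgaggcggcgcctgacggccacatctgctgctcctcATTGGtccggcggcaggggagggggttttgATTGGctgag
BARD1: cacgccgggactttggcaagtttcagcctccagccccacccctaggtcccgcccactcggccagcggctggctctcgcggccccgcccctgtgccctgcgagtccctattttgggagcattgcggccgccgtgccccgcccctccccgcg
XRCC3 holds 3 matches, 171, 108 and 66 bases before its start, BLM holds 2, at 141 and 46 bases, and CHEK2 holds 2, at 70 and 40 bases.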

How the data were processed

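RNA sequencing libraries (SOLiD 3 Plus, per the labels' protocols) of 2 lines and 3 treatments were used, 1 library per group. The deposited table gives, per the file headers, raw counts for each gene symbol and library. It also holds RPKM values, which the authors computed. Reads had been placed on hg19, a build named in the submitters' processing notes. The aligner, counter, annotation, filters and use of strand were not given in the sources used here, so reads of overlapping or near-identical genes cannot be told apart.

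Computed here: CPM on library sizes scaled by the trimmed mean of M-values, and edgeR 4.0.16 quasi-likelihood tests (R 4.3.3, 2-sided, Benjamini-Hochberg over the 13885 genes that averaged 20 or more counts, threshold 0.05). The main model was line plus treatment over 6 libraries, with 2 residual degrees of freedom. A second model held line, DHT and their interaction. Between single libraries, differences on log2(CPM + 1) were counted at 1.5-fold, and ratios carry exact 95% binomial intervals, which cover counting error only. The additive test of DHT against ethanol was checked on simulated counts with the same DHT effect in both lines and no library set apart. The coverage of the ratio intervals was simulated as well. The line and interaction tests were not simulated.

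Alternatives were DESeq2 1.42.0 size factors, total counts, the DESeq2 Wald test, limma 3.58.1 on log2(RPKM + 0.1), other count minimums, each library left out, a gene length offset, pseudocounts of 0.1 and 5 CPM, RPKM in place of CPM, and a 2-fold limit. Length was counts divided by RPKM. Promoters came from RefSeq (GRCh38.p14), a build other than that of the counts, so they were matched by symbol.

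The 32 genes and all lists were chosen with earlier results of these data known. Values in every library are given for members past a test, past 1.5-fold against ethanol in either line or in BicR against LNCaP under at least 2 treatments, and for the 2 per role with the largest difference in LNCaP DHT against ethanol. The others are given by ranges and counts, and ATR was added to stand beside ATM. Outside the 32, PARP1, PRKDC, MKI67, PCNA, CDKN1A, HSPA5 and KLK3 were named whatever their result, with members of other lists that passed a test; a few other genes that this rule names are not reported here.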

Additional observations from a re-analysis of the deposited data

Results flagged for a closer look

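Some members had responses of opposite sign in the lines, each beyond its counting interval. The values are log2 ratios of CPM between single libraries, and a difference between lines was not tested for these pairs of libraries. In the edgeR test of the DHT response between the lines, none of the 32 passed. Its error includes the difference between LNCaP ethanol and bicalutamide, so it cannot decide the matter for members far apart in those libraries.

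With DHT against ethanol, FANCB stood at 2.12 in LNCaP and -0.69 in BicR, RAD54L at 1.96 and -0.30, and BRIP1 at 1.28 and -0.46. FANCI stood at 1.18 and -0.35, CHEK2 at 0.93 and -0.38, FANCD2 at 0.90 and -0.37, and BRCA2 at 0.86 and -0.51.

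With bicalutamide against ethanol, BRCA2 stood at 1.65 in LNCaP and -0.40 in BicR, RAD54L at 1.30 and -0.23, and FANCI at 1.27 and -0.20. FANCD2 stood at 0.83 and -0.14, and BARD1 at 0.68 and -0.19. The ethanol libraries are shared between these sets of ratios, LNCaP ethanol being low and BicR ethanol high for these genes.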

How the results depend on the processing

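The line term of the main model already compares treatments within a line, and no replicate block beyond it could be fitted, since the labels carry no replicate numbers and each group has 1 library. For DHT against ethanol, 23 genes became 64 with total counts, 99 with DESeq2, 77 with every gene that has a count and 15 with a mean of at least 100 counts. For DHT against bicalutamide, 23 became 54, 122, 74 and 15 under the same settings and 37 with the length offset. For BicR against LNCaP, 614 became 1040 (523 higher and 517 lower, against 219 and 395), 1490, 1360 and 365, and 1029 (278 and 751) with the length offset. Among the 32, 2 were higher in BicR with total counts and with every gene (EXO1 and FANCD2), 4 with DESeq2, and 1 lower with the length offset. Bicalutamide against ethanol went from 0 genes to 1 with limma, and the interaction from 0 to 151 with DESeq2. A pseudocount of 5 CPM lowered the median of the 32 to 0.23 (LNCaP DHT against ethanol), 0.35 (LNCaP bicalutamide against ethanol) and 0.38 (BicR against LNCaP under ethanol).

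Leaving out 1 library gave 0 to 273 genes and, among the 32, 0 to 3 higher and 0 to 1 lower for DHT against ethanol. It gave 0 to 197 genes and 0 to 1 higher for bicalutamide against ethanol, 0 to 197 genes and 0 to 1 lower for DHT against bicalutamide, and 0 to 694 genes and 0 to 1 higher for BicR against LNCaP. The interaction ranged from 0 to 6288 genes, with 0 to 7 of the 32 higher and 0 to 17 lower. Without LNCaP DHT or BicR DHT it could not be fitted. Without LNCaP ethanol or LNCaP bicalutamide, its error came from the ethanol and bicalutamide libraries of BicR alone. There 0.0504% of genes were 1.5-fold higher with bicalutamide and 0.108% lower. Without BicR ethanol or BicR bicalutamide, the error came from those libraries of LNCaP alone, where 6.52% were higher and 7.94% lower. The high counts were in the fits with the BicR error, so they cannot decide whether the lines differ in their DHT response. For DHT against ethanol, RAD54L ranged from -0.11 to 1.79, XRCC2 from -0.011 to 1.87 and BRCA1 from -0.022 to 1.40, and for bicalutamide against ethanol BRCA2 from -0.22 to 1.49. FANCB and BLM rest on few counts, 11 and 28 in LNCaP ethanol.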
